A study of Mus musculus with 161 samples.

Results

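ΔN(1–31) denotes mouse CTCF without residues 1–31, expressed from a transgene in place of the endogenous protein. It was profiled by chromosome-conformation capture carbon copy (5C) in 2 mouse embryonic stem (ES) cell clones with 2 libraries each, which are 4 of the 91 5C libraries in the series. The libraries were chosen by their labels, as all 5C libraries of clones 1 and 2 with this deletion after 4 days of auxin and doxycycline (dox), and were set against the 14 libraries of the full-length line EN133.10 under the same treatment. In all of these lines the endogenous Ctcf gene carries an auxin-inducible degron (CTCF–AID), and the cells contain the plant F-box protein Tir1 and a dox-inducible FLAG-tagged CTCF cDNA with rtTA3G at the Tigre locus. Auxin thus degraded endogenous CTCF in every library, and dox induced the full-length or the shortened cDNA. In 2 further libraries the full-length line received auxin without dox for 4 days, and these give the level with little CTCF. The labels name clones 1 and 2 as lines EN280.1 and EN280.2, as does the study's list of 5C libraries, whereas its table of cell lines gives EN280.1 for both. Each line is a single clone, so an effect of the deletion and a property of the clone cannot be told apart within 1 clone. The amount of transgenic protein in each clone was not analysed here.

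CTCF is a zinc-finger protein that binds an oriented DNA motif. In the loop-extrusion model, cohesin enlarges DNA loops until it meets CTCF. The N terminus of CTCF, on the side of the motif from which cohesin is stopped, takes part in retaining cohesin. The paper reports that it is not strictly required for this. Contacts therefore accumulate within topologically associating domains (TADs) and are depleted across their boundaries, a depletion called insulation. The 5C primers cover the X-inactivation center, the region of chromosome X that holds Xist, the noncoding RNA that coats the inactive X chromosome, and Tsix, its antisense repressor.

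The deletion takes away the start of the reading frame, here given as codons 1–31 of mouse Ctcf (chr8:108187663-108187755 on the + strand of NCBIM37, in exon 3 of 12 of transcript ENSMUST00000005841.9). The capitals mark codons 13 to 31, which are also absent from the smaller deletion ΔN(13–33) described further on. The sequence comes from the reference genome, not from the transgene.
Ctcf codons 1–31: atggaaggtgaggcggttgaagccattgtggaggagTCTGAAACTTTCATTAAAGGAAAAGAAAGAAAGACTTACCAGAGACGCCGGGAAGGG

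The boundaries scored were 6 bins of 20 kb, and FLAG–CTCF peaks of the full-length line lie in 5 of them. A search for a core of the CTCF motif (CC, any 3 bases, AG, any 2 bases, GGC), on both strands, found it in 51.3% of the 1128 peaks on chromosome X and in 39 of the 78 peaks in the 5C region. The matches in boundary bins are shown because these are the positions at which the shortened protein was compared with the full-length protein. All of them lie on the + strand of the X chromosome, and the capitals mark the searched letters.
Boundary 1, chrX:99170401-99170430: tcagatacaCCAGAAGAGGGCactggatcc
Boundary 2, chrX:99414652-99414681: ctgtatagtCCAGCAGAGGGCactggatgt
Boundary 2, chrX:99415163-99415192: tcagacacaCCAGAAGAGGGCgtcaaatct
Boundary 3, chrX:100455384-100455413: accaggtgaCCACTAGATGGCggtatagta
Boundary 4, chrX:100677064-100677093: tgaaagaaaCCACTAGAGGGCaggtcacat
Boundary 4, chrX:100679562-100679591: ctgaataaaCCAGCAGGTGGCagcatgaat
Boundary 6, chrX:103214286-103214315: tcaggcacaCCAGCAGGGGGCatcagatcc
Boundary 6, chrX:103221925-103221954: cttagaaggCCAGAAGAGGGCatcgattcc
The bin of boundary 5 held no peak, and boundaries 2, 4 and 6 each held 1 further peak without a match.

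The clone libraries held 12268125 and 14524806 counts for clone 1 and 12748943 and 15239544 for clone 2, and the 12 full-length libraries with a complete count matrix held 5262254 to 23096139. All 4 clone libraries belong to a run of 14 consecutively numbered libraries from 7 lines, which includes full-length replicates 10 and 11. The run is defined by these numbers alone, and whether its libraries were prepared together was not known. Comparisons were therefore also made within this run. The corrected matrices of these 2 full-length replicates were deposited as forward against reverse primers and those of the clones as symmetric matrices, so within the run the form of the matrix and the line cannot be told apart. Primer pairs at 0 made up 46.4% and 47.6% of the corrected matrix in clone 1, 49.5% and 24.8% in clone 2, and between 27.4% and 59.0% in the full-length line (median 36.9%).

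Over the 6 boundaries, the clones fell on opposite sides of the full-length line. The insulation score compares contacts in a 100-kb square across a bin with the mean over all bins, as −log2 of their ratio, so that a higher score means fewer contacts across the bin. Mean insulation was 0.69 and 0.64 in clone 1, 0.53 and 0.54 in clone 2, and 0.54 (lowest), 0.60 (median) and 0.71 (highest) in the full-length line. Without dox it was 0.37 and 0.38. In another full-length line, labelled as low expression, it was 0.50 and 0.51, below both libraries of clone 2. That line entered no comparison, and full-length without further name means EN133.10 throughout. The lowest EN133.10 library exceeded both libraries of clone 2, which in turn exceeded both without dox. The clone 1 libraries lay in the upper part of the EN133.10 range.

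The difference in mean insulation from full-length was 0.054 for clone 1 (exact permutation test, two-sided, p = 0.1, adjusted p = 0.2). For clone 2 it was −0.077 (exact permutation test, p = 0.0167, the smallest that 2 against 14 libraries allow, adjusted p = 0.0667 over the 4 comparisons). Neither passed the threshold of 0.05. Clone 2 was lower than clone 1 by a difference of −0.13, where 2 against 2 libraries cannot give an exact p below 0.333 (adjusted p = 0.444). The mean of both clones differed from full-length by −0.011 (exact permutation test, p = 0.71). The p-values measure the spread between libraries, and libraries of 1 clone share a cell line.

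The position of clone 1 depended on the correction of the matrices. When the score was computed from raw counts scaled to the same total, mean insulation was 0.42 and 0.41 in clone 1, 0.36 and 0.37 in clone 2, and 0.38, 0.44 and 0.53 (lowest, median and highest) in 12 full-length libraries. Clone 2 remained below every full-length library on this scale. The difference from full-length was then −0.084 for clone 2 (exact permutation test, p = 0.022, adjusted p = 0.0462) and −0.060 for the mean of both clones (p = 0.0231, adjusted p = 0.0462), and both passed the threshold. For clone 1 it turned to −0.036 (p = 0.374).

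**Figure D1:**
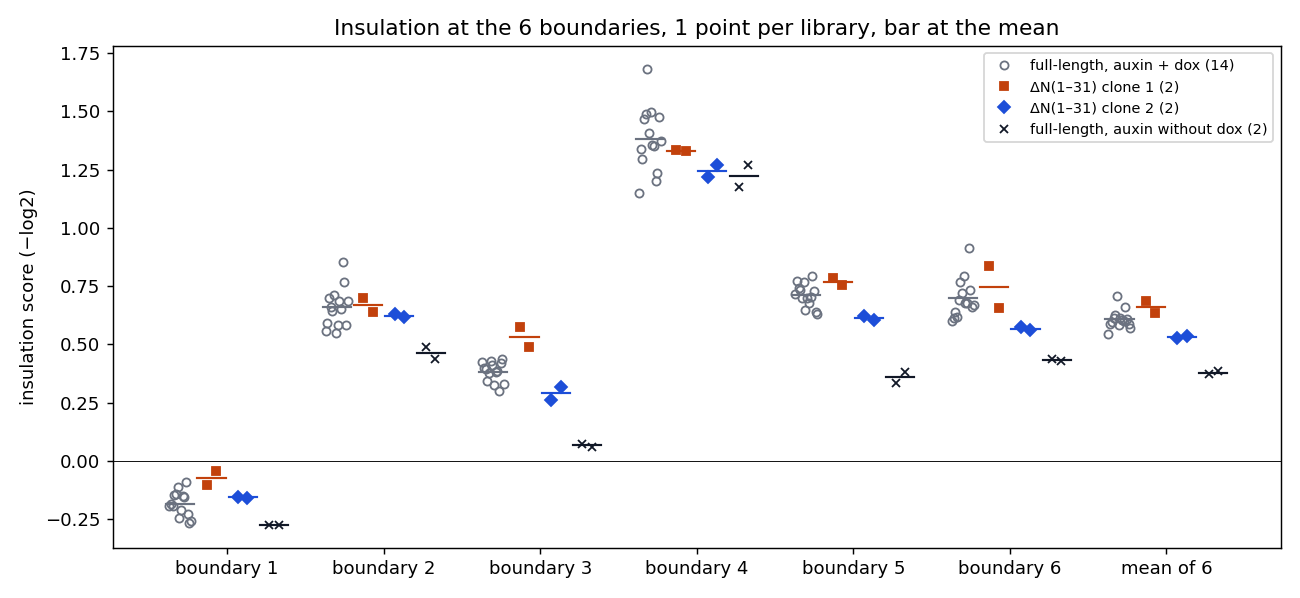
Insulation score (−log2, no unit) at each of the 6 boundaries and their mean, with 1 point per library and a bar at the group mean. Clone 1 lies highest at boundary 3, and both clone 2 libraries lie below all 14 full-length libraries for the mean of 6.

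Boundary 3 was where the clones parted. Its bin (chrX:100451148-100471147) overlaps exon and intron of 4930519F16Rik and holds 1 FLAG–CTCF peak. Insulation was 0.57 and 0.49 in clone 1 and 0.26 and 0.32 in clone 2, against 0.30, 0.39 and 0.44 (lowest, median and highest) in the full-length line and 0.07 and 0.06 without dox. Both clone 1 libraries lay above the full-length range, and those of clone 2 lay around its lower end. In a limma fit over 193 bins, clone 1 exceeded full-length by 0.15 ± 0.035 (SE, adjusted p = 0.0147), clone 2 differed from it by −0.09 ± 0.035 (adjusted p = 0.13), and clone 2 differed from clone 1 by −0.24 ± 0.047 (adjusted p = 0.00413). The fit to the run alone gives the same difference from the same 4 libraries, with a spread estimated from the run (adjusted p = 0.000577).

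These calls at boundary 3 were lost on raw counts. There the bin scored −0.00 and 0.06 in clone 1, 0.03 and 0.04 in clone 2, and −0.06, 0.22 and 0.37 in 12 full-length libraries. All 4 clone libraries thus lay in the lower part of the full-length range, and clone 1 differed from full-length by −0.15 (limma, adjusted p = 0.19). On raw counts within the run this difference was −0.20 and passed the test in the opposite direction to the corrected matrices (adjusted p = 0.04998).

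At the other 5 boundaries no comparison passed the test against 14 full-length libraries. At boundary 4, which spans the start of Xist and part of Tsix (chrX:100671148-100691147), insulation was 1.33 and 1.33 in clone 1, 1.22 and 1.27 in clone 2, and 1.15, 1.36 and 1.68 in the full-length line, with 1.17 and 1.27 without dox. Here the full-length libraries spread over the values of both clones, while the libraries without dox lay below clone 1, 1 of them below both libraries of clone 2 and 1 between them. At boundary 2 (chrX:99411148-99431147, no protein-coding gene) the scores were 0.70 and 0.64 in clone 1, 0.63 and 0.62 in clone 2, and 0.55, 0.66 and 0.85 in the full-length line.

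At boundaries 5 and 6 clone 2 had the lowest scores among the clones and the induced libraries of EN133.10. The low-expression full-length line scored lower still, with 0.585 and 0.592 at boundary 5 and 0.550 and 0.557 at boundary 6. At boundary 5 (chrX:101211148-101231147, no protein-coding gene) insulation was 0.78 and 0.75 in clone 1 and 0.62 and 0.61 in clone 2, with 0.63, 0.71 and 0.79 in the full-length line. At boundary 6 (chrX:103211148-103231147) it was 0.84 and 0.65 in clone 1 and 0.57 and 0.56 in clone 2, with 0.60, 0.68 and 0.91 in the full-length line. This bin overlaps Cox7b, a subunit of cytochrome c oxidase, and the start of Atp7a, a copper-transporting ATPase. Clone 2 minus full-length was −0.096 at boundary 5 (limma, adjusted p = 0.138) and −0.13 at boundary 6 (adjusted p = 0.194). Clone 2 minus clone 1 was −0.15 ± 0.050 at boundary 5 (limma, adjusted p = 0.0979) and −0.18 ± 0.079 at boundary 6 (adjusted p = 0.215). In the fit to the run alone the same differences, from the same 4 libraries but with a spread estimated from the run, passed the test, with an adjusted p of 0.00189 and 0.00933.

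Boundary 1 (chrX:99151148-99171147), in exon and intron of Nhsl2, had the lowest scores. They were −0.11 and −0.04 in clone 1, −0.15 and −0.16 in clone 2, and −0.26, −0.19 and −0.09 in the full-length line. Clone 1 differed from full-length by 0.11 ± 0.039 (limma, adjusted p = 0.0703) and clone 2 by 0.03 ± 0.039 (adjusted p = 0.713).

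Along the whole profile, clone 1 departed from full-length in more bins than clone 2. For clone 1, 24 of 193 bins passed the test (12.4%), 18 with a higher (9.33%) and 6 with a lower score (3.11%). For clone 2, 8 bins passed (4.15%), 3 higher (1.55%) and 5 lower (2.59%). The difference between the clones passed in 3 bins (1.55%), all lower in clone 2 and all adjacent, ending at boundary 3. The mean of both clones differed from full-length in 22 bins (11.4%), 13 higher (6.74%) and 9 lower (4.66%). These comparisons share the full-length libraries, and the counts were not tested against each other. Without replicate 1 or 2 of clone 1, 1 and 3 bins were called for clone 1, and without either replicate of clone 2, 0 were called for clone 2. The count for clone 2 was also 2 without either replicate of clone 1, 3 without full-length replicate 2, 10 or 13 or the full-length library with 41.4% or 30.5% of primer pairs at 0, and 4 without full-length replicate 8 or 11. For the mean of both, 4 or 8 bins were called without any 1 clone library, and 37 without the full-length library with 59.0% of primer pairs at 0. For the difference between the clones, 1 bin was called without replicate 1 of either clone, 8 without full-length replicate 12, 7 without full-length replicate 9, and 5 without full-length replicate 6 or the library with 59.0% at 0.

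Of the 30 bins within 40 kb of a boundary, 5 were called for clone 1, 0 for clone 2, 3 for the difference between the clones and 2 for their mean. Of the 163 bins elsewhere, 19, 8, 0 and 20 were called in the same order. The median difference between the clones was −0.08 in these bins and −0.01 in the other 163.

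Beside boundary 3, insulation was higher in clone 1 over 3 neighbouring bins. In the bin from 100.43 Mb (chrX:100431148-100451147, intron of 4930519F16Rik) the scores were 0.54 and 0.51 in clone 1, 0.18 and 0.22 in clone 2, and 0.21, 0.30 and 0.35 in the full-length line. Clone 1 was higher than full-length by 0.23 ± 0.031 (limma, adjusted p = 4.89e-05), and clone 2 differed from clone 1 by −0.33 ± 0.040 (adjusted p = 1.55e-05). In the bin from 100.41 Mb, the scores were 0.48 and 0.46 in clone 1 and 0.18 and 0.19 in clone 2, with 0.11, 0.24 and 0.37 in the full-length line. Clone 1 exceeded full-length there by 0.23 (adjusted p = 0.00787), and clone 2 differed from clone 1 by −0.28 (adjusted p = 0.0127). In both bins the clones did not overlap, and clone 2 lay in the lower part of the full-length range or below it. On raw counts clone 1 differed from full-length by −0.044 and 0.019 in these bins, and neither call was kept.

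**Figure D2:**
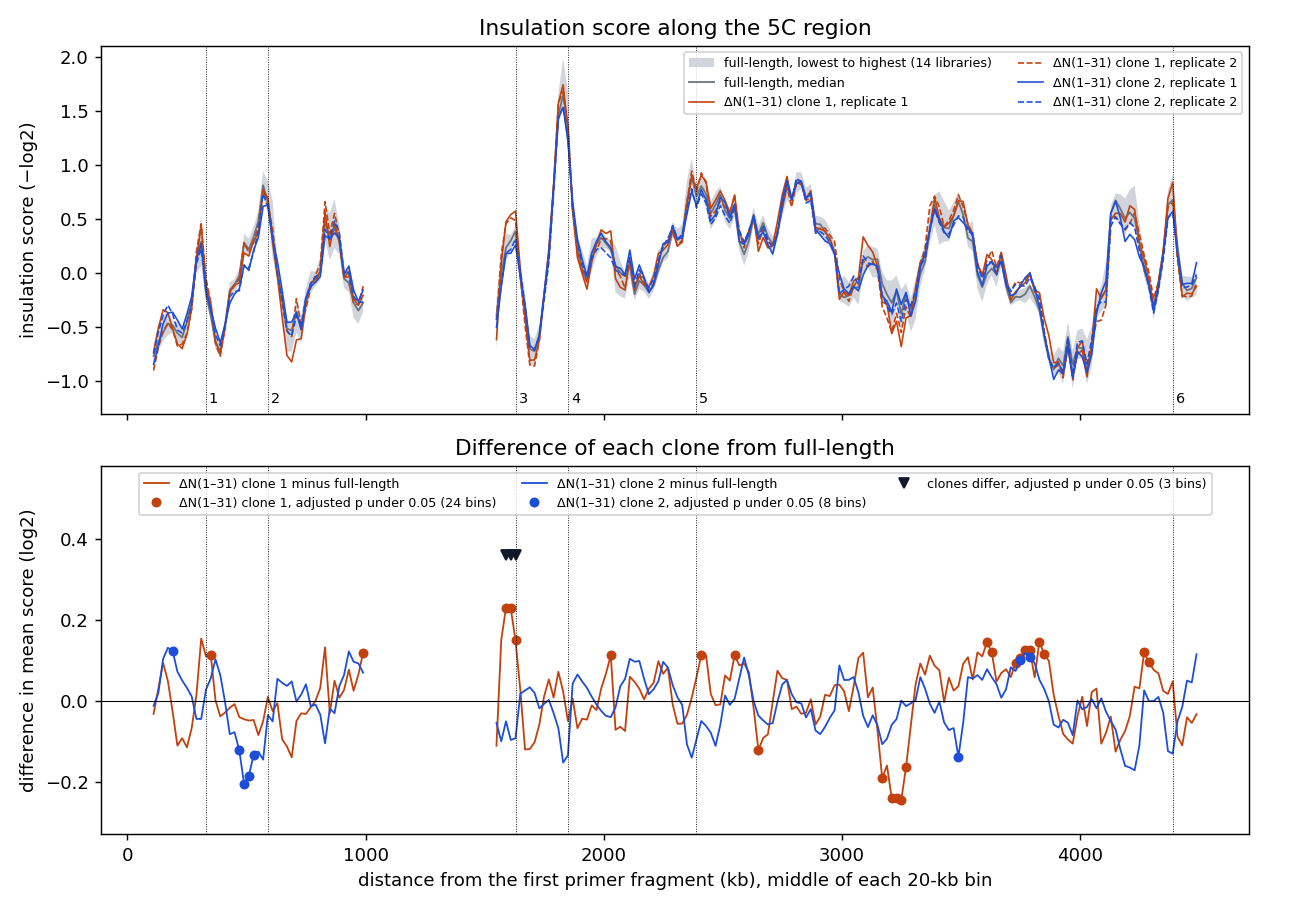
Insulation score (−log2) against distance from the first primer fragment (kb) for each clone library and the full-length range (top), and the difference of each clone's mean from full-length (log2, bottom), with bins of an adjusted p under 0.05 as dots and dotted lines at the 6 boundaries. Clone 1 rises before boundary 3, clone 2 falls before boundary 2, and both rise above full-length in 1 stretch between boundaries 5 and 6, while bins without a score are left blank.

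In the stretch from 102.57 to 102.63 Mb, within segment 6 and without a protein-coding gene, both clones had higher insulation than full-length. In the bin from 102.61 Mb (chrX:102611148-102631147, 1 FLAG–CTCF peak) the scores were −0.01 and 0.01 in clone 1, 0.00 and −0.04 in clone 2, and −0.23, −0.12 and −0.09 in the full-length line. All 4 clone libraries lay above all 14 full-length libraries. Clone 1 was higher by 0.13 ± 0.031 (limma, adjusted p = 0.0147), clone 2 by 0.11 ± 0.031 (adjusted p = 0.0452) and their mean by 0.12 ± 0.023 (adjusted p = 0.00519). Clone 2 minus clone 1 was −0.017 ± 0.041 (adjusted p = 0.819). On raw counts the mean difference was 0.098 (adjusted p = 0.0949) and that of clone 2 was 0.063 (adjusted p = 0.594), and neither call was kept.

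In the bin from 102.57 Mb the order was the same. Its scores were −0.13 and −0.09 in clone 1, −0.12 and −0.11 in clone 2, and −0.25, −0.22 and −0.16 in the full-length line, again without overlap. The mean of both clones was higher by 0.10 ± 0.021 (limma, adjusted p = 0.00519) and by 0.15 on raw counts (adjusted p = 0.00303). Clone 2 by itself was higher by 0.10 (adjusted p = 0.043), a call that was lost on raw counts (0.065, adjusted p = 0.503). In the bin between them, from 102.59 Mb, the mean difference was 0.12 ± 0.027 (adjusted p = 0.012) and 0.11 on raw counts (adjusted p = 0.0216). Without dox the scores were −0.11 and −0.09 in the bin from 102.57 Mb, −0.15 and −0.18 in that from 102.59 Mb and −0.11 and −0.15 in that from 102.61 Mb.

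Of the other bins named for the mean of both clones, that from 102.43 Mb was higher by 0.11 ± 0.027 (limma, adjusted p = 0.0147) and that from 101.41 Mb by 0.10 ± 0.030 (adjusted p = 0.0337). On raw counts these differences were 0.23 (adjusted p = 0.00303) and 0.089 (adjusted p = 0.131), so that the second call was lost. In the bin from 102.65 Mb, the clone 1 scores of −0.18 and −0.19 lay above a full-length range of −0.37 to −0.25, and those of clone 2 were −0.31 and −0.25. Clone 1 exceeded full-length there by 0.15 ± 0.032 (adjusted p = 0.0123), and clone 2 by 0.05 (adjusted p = 0.391). The mean of both was higher by 0.099 ± 0.024 (adjusted p = 0.0147), and the clones did not differ past the threshold (−0.094, adjusted p = 0.231).

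The lower bins named for the mean of both clones were those from 101.99 Mb (−0.15 ± 0.036, limma, adjusted p = 0.0147), 102.05 Mb (−0.14 ± 0.042, adjusted p = 0.0307), 99.31 Mb (−0.13 ± 0.030, adjusted p = 0.0147), 99.33 Mb (−0.12 ± 0.029, adjusted p = 0.0158) and 102.99 Mb, in Atrx, a chromatin remodeller gene (−0.11 ± 0.035, adjusted p = 0.0491). On raw counts the calls from 99.31 and 99.33 Mb were kept. The first 4 of these bins were also called for 1 of the clones and are described with it.

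Insulation fell in clone 2 across Pin4 and Ercc6l, before boundary 2. Pin4 encodes a peptidyl-prolyl isomerase and Ercc6l a DNA translocase of mitotic chromosomes. In the bin at the start of Pin4 (chrX:99311148-99331147) the scores were 0.07 and 0.08 in clone 2, 0.19 and 0.28 in clone 1, and 0.20, 0.28 and 0.36 in the full-length line. Clone 2 fell below full-length by a difference of −0.21 ± 0.040 (limma, adjusted p = 0.00969), and clone 1 differed by −0.05 (adjusted p = 0.474). In the next bin, in Ercc6l, the scores were 0.03 and 0.05 in clone 2, 0.16 and 0.19 in clone 1, and 0.14, 0.22 and 0.32 in the full-length line, with a difference of −0.19 for clone 2 (adjusted p = 0.0106).

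Both calls for clone 2 held on raw counts, at −0.25 (limma, adjusted p = 0.00705) and −0.20 (adjusted p = 0.0104). Clone 2 minus clone 1 was −0.16 (adjusted p = 0.105) and −0.14 (adjusted p = 0.147) in these bins and did not pass the test. The neighbouring bins, at the start of Ercc6l and from 99.29 Mb, were lower in clone 2 by differences of −0.13 (adjusted p = 0.0452) and −0.12 (adjusted p = 0.043). Without dox the Pin4 bin scored 0.30 and 0.21.

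In clone 1, insulation fell around Magee2, a gene of the MAGE family. In the bin at its start (chrX:102051148-102071147, 1 FLAG–CTCF peak) the scores were −0.44 and −0.37 in clone 1, −0.15 and −0.27 in clone 2, and −0.31, −0.16 and −0.02 in the full-length line. Clone 1 differed from full-length by −0.24 ± 0.056 (limma, adjusted p = 0.0147) and clone 2 by −0.05 (adjusted p = 0.678). In the adjacent bins from 102.07, 102.03 and 102.09 Mb and in that from 101.99 Mb, clone 1 was lower by −0.25, −0.24, −0.16 and −0.19 (largest adjusted p = 0.0437). Clone 2 minus clone 1 did not pass in any of the 5 bins (adjusted p = 0.147 to 0.459). In the bin from 101.99 Mb both clone 2 libraries lay below 13 of the 14 full-length libraries. On raw counts the 5 differences were between −0.13 and −0.00 and none was called.

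The remaining named bins were both named for clone 2. The bin at the start of Magee1, another MAGE gene, beside 2610029G23Rik (from 102.31 Mb) was lower by a difference of −0.14 ± 0.037 (limma, adjusted p = 0.043), and the bin from 99.01 Mb, with 2 FLAG–CTCF peaks, was higher by 0.12 ± 0.030 (adjusted p = 0.0376). Among the named bins, 2 of 10 for clone 1, 2 of 8 for clone 2, 0 of 3 for the difference between the clones and 5 of 10 for their mean were also called on raw counts.

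In the contact map, single bin pairs rarely separated either clone from full-length. The map was taken as log2 of observed over expected signal, where expected is the mean at the same distance in the same library, over 5460 pairs of 40-kb bins. For clone 1, limma called 1 pair (0.0183%), a lower contact over 680 kb between an intron of Hdac8 (chrX:99631148-99671147), a histone deacetylase gene, and chrX:100311148-100351147. This value was −1.38 and −0.83 in clone 1, 0.22 and 0.57 in clone 2, and 0.12, 0.93 and 1.81 in the full-length line, with a difference for clone 1 of −2.10 ± 0.315 (adjusted p = 0.0226). Only the clone 1 libraries lay below the full-length range. From raw counts, edgeR gave −1.31 for this pair (adjusted p = 0.131). Without the full-length library with 59.0% of primer pairs at 0, 25 pairs were called for clone 1, and without replicate 1 or 2 of clone 1, 5 and 2 were.

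For clone 2, for the difference between the clones and for their mean, limma called 0 of 5460 pairs (0%). At an unadjusted p under 0.05 there were 330, 460 and 543 pairs, beside 724 for clone 1. The edgeR quasi-likelihood test on raw counts called 0 for either clone and for their difference and 1 for their mean. It gave 851, 478, 339 and 874 pairs at an unadjusted p under 0.05 for clone 1, clone 2, their difference and their mean. Without any difference, a share of about 0.05 of the tested pairs would fall under this limit, so the unadjusted counts are not results by themselves. Without replicate 2 of clone 2, limma called 19 pairs for clone 2, 7 for the difference between the clones and 1 for their mean. It also called 1 for the difference without replicate 1 of clone 1, and 1 for the mean without replicate 2 of clone 1, full-length replicate 13 or the full-length library with 59.0% of primer pairs at 0.

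The boundaries divide the region into 7 segments and so the map into 28 classes of contact, within or between segments. Values are relative to the mean at the same distance in the same library, with bin pairs at 0 left out. Of the 28 values, 4 were lower in clone 1 than in full-length (14.3%), 3 of them between segments and 1 within segment 3, and 0 were higher. For clone 2, for clone 2 against clone 1 and for the mean of both, limma called 0 (0%). At an unadjusted p under 0.05 there were 2, 5 and 7 of the 28 classes, where a share of about 0.05 would pass without any difference. No second tool was run on these classes. Without either clone 1 library, 0 classes were called for clone 1, and without the full-length library with 59.0% or 44.7% of primer pairs at 0, 11 and 8 were. Without these same libraries, 8 and 4 classes were called for the mean of both, and without the former 2 for clone 2 against clone 1. Without full-length replicate 1, 2 were called for the mean of both, and without full-length replicate 1, 5 or 11, 1 was called for clone 2.

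The strongest decrease was between segment 1, which includes Ogt, the O-GlcNAc transferase gene, and segment 4, which runs from 4930519F16Rik to the boundary in Xist and Tsix. Mean log2 observed over expected was −0.85 and −0.85 in clone 1, −0.37 and −0.23 in clone 2, and −0.87, −0.30 and −0.13 in the full-length line, with −0.14 and 0.02 without dox. Clone 1 differed from full-length by −0.48 ± 0.132 (limma, adjusted p = 0.0222), although 1 full-length library lay as low. Clone 2 differed from full-length by 0.07 (adjusted p = 0.93) and from clone 1 by 0.55 ± 0.175 (adjusted p = 0.154). With the spread estimated from the run alone, the same last difference passed (adjusted p = 2.78e-05).

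The other 3 classes concerned segment 5, with the E3 ubiquitin ligase gene Rlim, and segment 3, with Hdac8. Between segments 2 and 5 the values were −0.87 and −0.86 in clone 1, −0.62 and −0.45 in clone 2, and −0.91, −0.39 and −0.26 in the full-length line (clone 1 difference −0.42, limma, adjusted p = 0.0314). Between segments 1 and 5 they were −0.95 and −1.04 in clone 1, −0.79 and −0.75 in clone 2, and −0.89, −0.67 and −0.45 in the full-length line (−0.31, adjusted p = 0.0222). Within segment 3 they were 0.03 and 0.03 in clone 1, 0.08 and 0.17 in clone 2, and 0.06, 0.21 and 0.31 in the full-length line (−0.18, adjusted p = 0.0222). In these last 2 classes both clone 1 libraries lay below every full-length library. On raw counts segments 1 and 4 gave −0.28 (adjusted p = 0.224) and segments 2 and 5 gave −0.37 (adjusted p = 0.101), and both calls were lost. Those of segments 1 and 5 (−0.35) and within segment 3 (−0.20) were kept (limma, adjusted p = 0.03 for both). The 3 classes between segments turned to higher values with the median over primer pairs, at 0.23, 0.046 and 0.31 for segments 1 and 4, 2 and 5, and 1 and 5.

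Over the 21 classes between segments, clone 1 lay below full-length in 19 (median difference −0.13) and clone 2 above it in 15 (median 0.04). Clone 2 exceeded clone 1 in all 21, by a median of 0.17 with a median SE of 0.107. Within the run, clone 2 lay above full-length in 10 of the 21 and below it in 11 (median −0.00030), and clone 1 below it in 20 (median −0.19). There, 13 of the 28 classes were called for clone 1, all lower, 0 for clone 2, and 11 for clone 2 against clone 1, all higher in clone 2. With bin pairs at 0 kept, by taking the log2 of the mean, the comparisons with all full-length libraries called 5 classes for clone 1, 1 for clone 2 and 6 for the mean of both. Up to 31.6% of bin pairs of a class were at 0 in a clone library, up to 43.1% in a full-length library, and the part of these zeros in the differences was not tested.

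**Figure D3:**
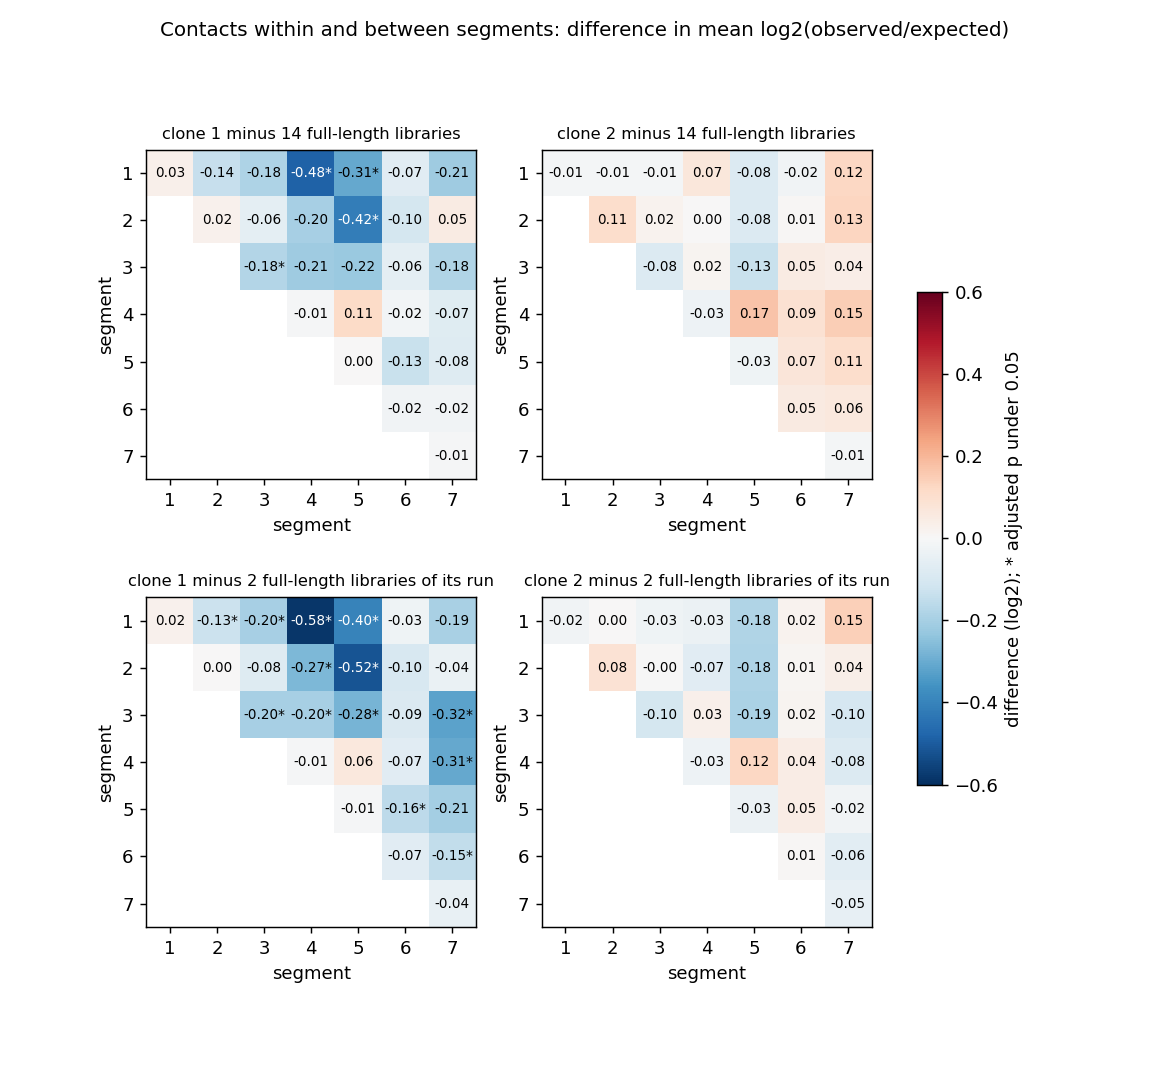
Difference in mean log2 observed over expected contact of clone 1 (left) and clone 2 (right) from 14 full-length libraries (top) and from the 2 of the same run (bottom), for each pair of the 7 segments, with an asterisk at an adjusted p under 0.05. Values for clone 1 reach −0.48 and −0.58 between segments 1 and 4, where those for clone 2 are 0.07 and −0.03.

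Contacts between FLAG–CTCF peaks were not distinguished from those of the full-length line. Over 344 pairs of 20-kb bins that both held a peak and lay 100 to 1000 kb apart, mean log2 observed over expected was 0.09 and 0.10 in clone 1, 0.10 and 0.14 in clone 2, and 0.01, 0.09 and 0.13 in the full-length line, against 0.16 and 0.17 without dox. The difference was 0.0046 for clone 1 (exact permutation test, p = 0.983, adjusted p = 0.983). For clone 2 it was 0.032 (exact permutation test, p = 0.133, adjusted p = 0.444). Both libraries without dox lay above the full-length range. A value like that of full-length therefore does not show that contacts made by CTCF were kept. Of the 15 contacts between pairs of boundaries, none passed the test against 14 full-length libraries. Between boundaries 3 and 4 every clone library nevertheless lay above all 14. That contact was 0.06 and 0.08 in clone 1, 0.14 and 0.17 in clone 2, and −0.56, −0.23 and 0.03 in the full-length line. The mean of both clones was higher by 0.34 ± 0.087 (limma, adjusted p = 0.27). Without dox it was −0.30 and −0.08.

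The contact of boundaries 2 and 3, over 1040 kb, set the clones furthest apart relative to its error. It was 0.70 and 0.44 in clone 1, 1.28 and 1.46 in clone 2, and 0.74, 1.06 and 1.33 in the full-length line. Clone 1 differed from full-length by −0.49 ± 0.120 (limma, adjusted p = 0.164) and clone 2 by 0.31 ± 0.120 (adjusted p = 0.752). Clone 2 minus clone 1 was 0.80 ± 0.158 (limma, adjusted p = 0.432), and it did not pass with the spread of the run either (adjusted p = 0.0846). Within the run the contact of boundaries 1 and 4 was higher in clone 1 than in full-length by 0.85 (adjusted p = 0.0107). Over all full-length libraries this contact was 0.61, 1.14 and 2.13, and clone 1, at 1.63 and 1.43, lay inside that range.

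Both clones placed a larger share of signal at long distance than most full-length libraries. Contacts over more than 1000 kb took 18.1% and 17.0% of the corrected signal in clone 1, 17.9% and 16.0% in clone 2, and 12.8%, 14.5% and 20.2% in the full-length line, and 16.3% and 16.1% without dox. All 4 clone libraries lay above 12 of the 14 full-length libraries and below the other 2. The mean of both clones exceeded full-length by 2.19 percentage points (exact permutation test, p = 0.0654, adjusted p = 0.261), with 2.51 points for clone 1 (adjusted p = 0.267) and 1.87 for clone 2 (adjusted p = 0.378). Without the full-length library with 59.0% of primer pairs at 0, the mean of both exceeded full-length by 2.59 points and passed the exact permutation test (adjusted p = 0.0336). Primer pairs at 0 were most frequent in the full-length library with the largest share of far contacts, at 59.0%, and their part in the shares was not tested.

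**Figure D4:**
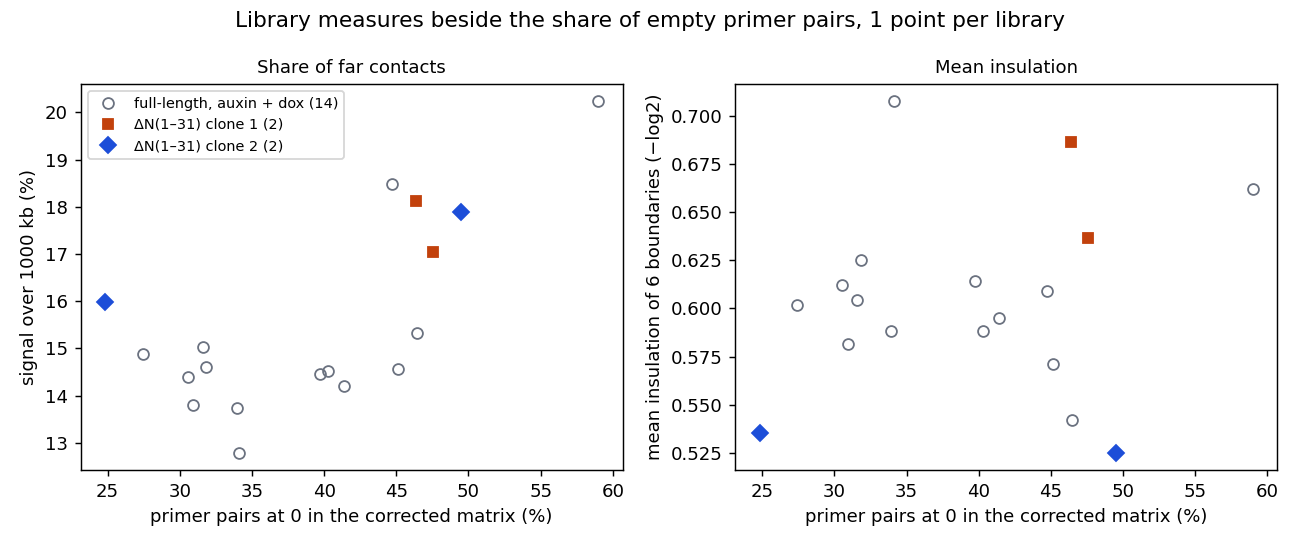
Share of corrected signal over 1000 kb (%, left) and mean insulation of 6 boundaries (−log2, right) against the share of primer pairs at 0 (%), with 1 point per library. The clone libraries hold 16.0% to 18.1% of signal over 1000 kb. Clone 2 has a lower mean insulation than clone 1 and all libraries of EN133.10 with dox, at both 24.8% and 49.5% of primer pairs at 0. The libraries without dox and those of the low-expression full-length line are not plotted.

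ΔN(13–33) lacks part of the same N-terminal segment, and 4 of its libraries are numbered within the same run. Their mean insulation was 0.57 and 0.53 in its clone 1 and 0.59 and 0.60 in its clone 2, all below ΔN(1–31) clone 1, with 1 of them within the values of ΔN(1–31) clone 2 and 3 above. The mean was 0.60 ± 0.079 (SD, n = 4 libraries) for ΔN(1–31) and 0.57 ± 0.032 (SD, n = 4) for ΔN(13–33). The difference of 0.021 did not pass an exact permutation test (p = 0.686, smallest possible 0.0286) and was −0.022 on raw counts. The SD and this test treat libraries as units, although libraries of 1 clone share a cell line. Libraries of ΔN(13–33) outside the run were not used.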

How the data were processed

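Clones were grouped by their labels. The authors mapped 5C reads with Bowtie2 (processing notes also name SAMtools, versions not given there) to 5C primers placed on mm9, and the deposited tables give each primer pair's raw count. The other deposited matrix of a library holds signal, made by the authors from these counts by iterative correction of fragments. The authors also deposited FLAG–CTCF peak coordinates without a score, and these peaks were intersected with bins. The count matrices of 2 full-length libraries stop early and were left out of steps on counts.

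Corrected signal was averaged in 20-kb bins, with the first 2 diagonals filled by the mean of the second. Squares needed at least 50% of bin pairs measured, which left 193 of 230 bins. Map pairs lay at least 80 kb apart, with a pseudocount of 0.1. Zero bin pairs were left out of segment means. Features were fitted with limma 3.58.1 (R 4.3.3) with a trend, over 18 libraries, with Benjamini-Hochberg adjustment over all features and calls at 0.05. Single values were compared by exact permutation tests (SciPy 1.17.1), adjusted over 4 comparisons. Within the run, and where leaving out a library left 1 in a group, single values were compared in a linear model with a pooled spread. Fits were tested on simulated data. The other main alternatives were edgeR 4.0.16 on counts, raw counts scaled to 1000000, and other bins, windows and pseudocounts.

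Named were all boundary bins, the 5 called bins or map pairs with the largest difference in each direction, and all called segment pairs. Genes are Ensembl protein-coding annotation of NCBIM37 (mm9), with Xist and Tsix added. Members, lists and tests were chosen with earlier results of these data known. Over 120 pairs of libraries, 0.519% to 4.40% of primer pairs had equal counts, so none was treated as a duplicate. Counts set the precision, and PCR products are not independent molecules.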

Additional observations from a re-analysis of the deposited data

Results flagged for a closer look

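The clones differed in 3 adjacent bins that end at boundary 3, and these were singled out because the test of the difference between the clones passed. Clone 2 minus clone 1 was −0.28 in the bin from 100.41 Mb, −0.33 in that from 100.43 Mb and −0.24 in that from 100.45 Mb. On raw counts the same differences were −0.17, −0.13 and 0.00, and none passed the test, so these calls rest on the corrected matrices. Mean insulation over the 6 boundaries is included because both libraries of clone 1 lay above the full-length mean and both of clone 2 below it, with a difference of −0.13 between the clones. That difference could not pass an exact test of 2 against 2 libraries, and on raw counts it was −0.05. Dixon's test for outliers was limited to groups of 4 to 10 libraries, where it found none. The clones, with 2 libraries each, and the full-length line, with 14, lie outside these sizes and were not tested by it.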

How the results depend on the processing

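The median SE of a clone's difference from full-length was 0.23 for a map pair and 0.043 for an insulation bin, so only larger differences could be called in the map. With raw counts scaled to 1000000, mean insulation changed to −0.036 for clone 1, −0.084 for clone 2, −0.060 for the mean of both and −0.022 for ΔN(1–31) against ΔN(13–33). Called bins changed to 68 (50 higher and 18 lower), 2 (both lower), 1 and 48 for clone 1, clone 2, their difference and their mean. Called map pairs changed to 0 for clone 1 and 1 for clone 2, and segment classes to 1 for clone 2 and 3 for the mean. On raw counts clone 1 minus full-length turned to −0.044 and −0.15 in the bins from 100.43 and 100.45 Mb and to −0.018 at boundary 6. Clone 2 minus clone 1 turned to 0.041, 0.0032 and 0.089 at boundaries 1, 3 and 4, within the run as well. The cause of these changes was not tested.

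Within the run, mean insulation differed by 0.059, −0.073 and −0.13 for clone 1, clone 2 and their difference, past the threshold of a pooled linear model, and the share of far contacts by 2.63, 1.98 and 2.30 points for clone 1, clone 2 and their mean. Peak contacts of clone 1 turned to −0.00301, and clone 2 minus full-length at boundary 1 to −0.00309. Called bins were 40, 44 and 14, called map pairs 121, 31 and 9, and called segment classes 13, 11 and 7, for clone 1, the difference between the clones and the mean. On raw counts of the run these became 92, 67 and 55 bins with 4 for clone 2, 452, 224 and 116 map pairs, and 14, 9 and 6 classes. There clone 1 minus full-length turned to −0.019, −0.069 and −0.20 in the bins from 100.41, 100.43 and 100.45 Mb, the last of them past the threshold, and to −0.018 at boundary 2. This setting, the log2 of the mean, the clones alone and the edgeR filter were chosen after the data had been seen.

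With log2 of contacts within over contacts across, the mean of both clones turned to 0.040, boundary 4 in clone 1 to 0.020, and called bins fell to 2 for clone 1 and 0 for the others. With medians over primer pairs, far contacts turned to −0.665 for clone 1 and 1.97 for clone 2 against clone 1. Called bins were then 13, 0 and 12 for clone 1, clone 2 and the mean, map pairs 7, 5 and 2 for clone 1, the difference between the clones and the mean, and classes 0 for clone 1. The 3 called classes between segments turned to 0.23, 0.046 and 0.31, and boundary 2 in clone 1 to −0.00633. Peak contacts of clone 1 turned to −0.00203 at 200 to 600 kb and −0.0157 with a peak within 1 bin. A 200-kb window gave 21, 31 and 37 bins for clone 2, the difference between the clones and the mean, 80% measured pairs gave 6 for that difference, and the left edge of a bin gave 1 for clone 2 and turned boundary 1 in clone 2 to −0.00942 and boundary 2 in clone 1 to −0.000273.

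Map pairs called for clone 1 were 10 with 20-kb bins, 3 with 60-kb bins, 2 and 0 with pseudocounts of 0.01 and 0.5, 12 without distance correction and 0 with edgeR, with or without its filter at a mean count of 10. For the difference between the clones they were 3, 2 and 1 with 20-kb bins, 60-kb bins and no distance correction, and for the mean 4 without distance correction and 1 with edgeR in both forms. With the log2 of the mean, classes were 1 for clone 2 and 6 for the mean. Of the other alternatives for named bins, classes and the map pair, 123 lost the call and 7 gained one.

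Equal replicate numbers of the clones deviated with a correlation of −0.147 over 193 bins, and no label gives a pairing, so the numbers were not used as pairs. With the replicate number as a block, the difference between the clones gave 3 bins, 0 map pairs and 9 classes. The clones alone without a block gave 13 bins and 7 classes.

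Leaving out 1 library at a time, mean insulation ranged from 0.029 to 0.079 for clone 1, −0.082 to −0.069 for clone 2, −0.16 to −0.11 for their difference, −0.042 to 0.012 for their mean and −0.0091 to 0.045 against ΔN(13–33). Peak contacts ranged from −0.0015 to 0.0106, 0.0146 to 0.0501, 0.01 to 0.0455 and 0.00789 to 0.0251, in the same order of the first 4. Far contacts ranged from 1.98 to 3.05, 0.918 to 2.82, −1.59 to 0.305 and 1.90 to 2.61 points. Called bins ranged from 1 to 28, 0 to 9, 1 to 8 and 4 to 37, map pairs from 1 to 25, 0 to 19, 0 to 7 and 0 to 1, and classes from 0 to 11, 0 to 1, 0 to 2 and 0 to 8. Without clone 1 replicate 1, 1 bin and 0 classes remained called for clone 1, and its differences at boundaries 2 and 6 turned to −0.019 and −0.043. Without clone 1 replicate 2 these were 0.038 and 0.14, with 3 bins and 0 classes called. Without either clone 2 replicate, 0 bins were called for clone 2, and 19 map pairs without replicate 2.

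Full-length numbers 3 and 4 were each used for 2 libraries, told apart here by their share of primer pairs at 0. Without replicate 3 with 59.0%, peak contacts of clone 1 turned to −0.00105 and far contacts of the mean were 2.59 points, which passed the threshold. Clone 1 then had 25 map pairs and 11 classes, the mean 37 bins, 1 map pair and 8 classes, and the difference between the clones 5 bins and 2 classes. Without the other libraries, the mean had at most 23 bins. Without replicate 4 with 44.7%, clone 1 had 8 classes and the mean 4. Without full-length replicates 12, 9 or 6 the difference between the clones had 8, 7 and 5 bins. For clone 2, called bins fell to between 2 and 4 without either clone 1 replicate or any of full-length replicates 2, 3 (with 41.4%), 4 (with 30.5%), 8, 10, 11 and 13.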
